A study of Mus musculus with 3 samples.

Results

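The intergenic distal peaks are the sites of *Dali* CHART-Seq occupancy that lie far from any protein-coding gene. *Dali* is a long non-coding RNA of neural tissue that is transcribed near the POU-domain transcription factor gene *Pou3f3*. CHART-Seq finds where such an RNA sits on chromatin: biotinylated oligonucleotides complementary to the RNA pull it down from crosslinked cells, and the DNA that comes with it is sequenced. The cells were N2A, a mouse neuroblastoma line that can be driven to differentiate into neuron-like cells, grown here without a knockdown or differentiation treatment named in the sample labels. All 3 samples were *Dali* pull-downs of 1 group, each from 300000000 cells captured with 810 pmol of oligonucleotides. Per the methods, the pull-downs differed in their cocktail of capture oligonucleotides, and the labels do not say which sample received which. The deposited result is 1 list of 1427 peaks on mouse genome build mm9 called against input DNA and a lacZ pull-down, with 1 score a peak and no value for each pull-down, so that the spread between pull-downs and the read depth behind a peak are unknown and every test below runs over peaks, not over replicates.

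Of the 1427 listed peaks, 453 (31.7%) were intergenic distal. Their midpoint lay at least 10 kb from the nearest transcription start site of a protein-coding transcript in GENCODE M1, and they overlapped no base of a protein-coding gene. The other peaks comprised 360 promoter peaks within 1 kb of a start, 291 promoter-flanking peaks between 1 and 10 kb, and 323 intragenic distal peaks, which also lie at least 10 kb from a start but overlap a gene. The intragenic distal peaks were the main comparison because they share the 10 kb minimum. Distance beyond it was not matched, with a median of 34810 bp for them and 46290 bp for the intergenic peaks. At the 10 kb limit, the nearest members inside were a peak 10030 bp from *Smug1* with a score of 15.0 and a peak 10099 bp from *Angpt4* with a score of 10.7. Just outside it were peaks 9984 bp from *Cln6* and 9997 bp from *Cd83*, with scores of 19.6 and 9.16.

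Distal regulatory DNA between genes includes enhancers, which are bound by tissue-specific transcription factors and act on promoters over distance, and insulator sites bound by CTCF, the zinc finger protein that anchors chromatin loops. Basic helix-loop-helix factors, which drive neuronal differentiation, bind enhancers at E-box words, and AP-1, the dimer of FOS and JUN, binds them at a word of its own. Promoters of broadly expressed genes are by contrast often CpG islands with SP1, ETS and NRF1 words. Chromatin marks were not measured here, so the words below describe the DNA at the peaks and not binding of any factor. Words were counted in the central 500 bp, which reach outside a peak that is narrower (lower quartile of intergenic width 493 bp).

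The sequences under the peaks with the highest scores show the range of this DNA. The central 300 bases of the 3 highest-scoring intergenic peaks are given on the plus strand of mm9, with every match to 1 of the 16 searched words in capitals. The peak of score 78.5 upstream of *Apod* (chr16:31355171-31355470), the gene of the lipid-binding protein apolipoprotein D, held none of the words in these bases. The peak of score 65.7 upstream of *C1qtnf7* (chr5:43847371-43847670) held the E12 E-box word CAGCTG at 3 places, with 1 MAZ and 1 homeodomain word. The peak of score 63.1 near *Dnmt3l* (chr10:77490871-77491170), whose product is the catalytically inactive partner of the de novo DNA methyltransferases, held 1 exact CTCF consensus match. This peak lay between the genes *Pfkl* and *Aire*, and *Dnmt3l* had only the nearest start, 14 kb away.

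Apod peak: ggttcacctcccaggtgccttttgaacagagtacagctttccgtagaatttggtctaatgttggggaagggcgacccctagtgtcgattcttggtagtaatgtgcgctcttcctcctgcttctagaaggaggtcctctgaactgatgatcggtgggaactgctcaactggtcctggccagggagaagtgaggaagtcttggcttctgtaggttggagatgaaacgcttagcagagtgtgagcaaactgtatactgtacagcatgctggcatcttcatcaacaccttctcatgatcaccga
C1qtnf7 peak: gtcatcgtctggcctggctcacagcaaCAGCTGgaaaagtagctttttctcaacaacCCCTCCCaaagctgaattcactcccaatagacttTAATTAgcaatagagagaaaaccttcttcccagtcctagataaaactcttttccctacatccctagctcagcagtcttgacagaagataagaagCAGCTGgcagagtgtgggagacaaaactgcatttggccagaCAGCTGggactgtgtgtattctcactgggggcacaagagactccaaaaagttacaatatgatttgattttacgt
Dnmt3l peak: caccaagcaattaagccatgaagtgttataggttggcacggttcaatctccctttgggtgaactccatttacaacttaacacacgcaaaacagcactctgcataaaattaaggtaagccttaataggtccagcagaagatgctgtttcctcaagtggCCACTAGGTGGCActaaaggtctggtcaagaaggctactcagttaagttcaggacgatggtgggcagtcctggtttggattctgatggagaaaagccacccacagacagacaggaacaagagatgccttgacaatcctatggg

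The CTCF consensus is shown in its context because it set the intergenic peaks apart from their flanks by the largest ratio among the words found in both. The stretches of 60 bases around the match are given for the 5 highest-scoring intergenic peaks that held an exact match, with no mismatch, read on the strand of the match, with the 13 letters of the consensus in capitals. They lay at chr10:77491005-77491064 (plus strand, nearest gene *Dnmt3l*), chr10:120139062-120139121 (minus strand, nearest gene *4921513I03Rik*), chr15:101814920-101814979 (minus strand, nearest gene *Krt8*), chr8:20020424-20020483 (minus strand, nearest gene *Gm15319*) and chr1:172831884-172831943 (plus strand, nearest gene *Fcrlb*).

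Dnmt3l peak, CTCF match: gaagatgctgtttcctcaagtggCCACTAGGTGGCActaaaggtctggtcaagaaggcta
4921513I03Rik peak, CTCF match: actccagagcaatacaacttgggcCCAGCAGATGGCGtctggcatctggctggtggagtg
Krt8 peak, CTCF match: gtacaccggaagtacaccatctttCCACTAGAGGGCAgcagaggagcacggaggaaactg
Gm15319 peak, CTCF match: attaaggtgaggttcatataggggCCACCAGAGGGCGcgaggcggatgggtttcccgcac
Fcrlb peak, CTCF match: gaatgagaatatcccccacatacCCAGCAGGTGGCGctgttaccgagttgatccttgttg

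In these 5 peaks the match lay within 125 bp of the midpoint, at 13 bp, 7 bp, 50 bp, 125 bp and −44 bp in the order given. The scores of the 5 peaks were 63.1, 62.8, 57.4, 52.6 and 41.7.

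Intergenic peaks had scores from 6.89 to 78.5, with a median of 19.8 (quartiles 14.8 and 26.9). They were 236 to 7063 bp wide with a median of 656 bp, and 374 of the 453 (82.6%) were narrower than 1000 bp. Neither measure set them apart from the intragenic distal peaks, whose medians were 18.4 and 629 bp. Scores above the median of the whole list were found in 234 of 453 intergenic (51.7%) and 152 of 323 intragenic distal peaks (47.1%), an odds ratio of 1.20 (95% interval 0.894 to 1.62, exact Fisher test, two-sided p = 0.216). For width the counts were 238 and 159, an odds ratio of 1.14 (95% interval 0.849 to 1.54, exact Fisher test, p = 0.382).

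The 10 highest-scoring intergenic peaks lay on chromosomes 16, 5, 10, 8, 18 and 15. After the *Apod*, *C1qtnf7* and *Dnmt3l* peaks came one of score 62.8 between *Hmga2* and *4921513I03Rik*, 63.7 kb from the latter. A peak of score 60.8 lay 307 kb upstream of *Hand2*, the basic helix-loop-helix factor of sympathetic neurons, in a gene-free interval of 728.6 kb (chr8:59492536-59493222). The other 5 had *Epc1* (score 58.9), *2700029M09Rik* (57.9), the keratin gene *Krt8* (57.4), *Gm5908* (54.9) and the transcriptional corepressor gene *Irf2bp2* (54.0) as their nearest gene. Of the 10, 4 were on chromosome 8.

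Intergenic peaks crowded toward genes within the space that their definition left open. Their distance to the nearest start ran from 10030 bp to 1166349 bp with a median of 46.3 kb, whereas the median over 2760201 windows of 500 bp tiling the genome in which an intergenic peak could lie was 130.2 kb. Per megabase of this eligible genome there were 0.655 peaks between 10 and 20 kb from a start (95% Poisson interval 0.525 to 0.807, 88 peaks) and 0.625 between 20 and 50 kb (0.530 to 0.732, 153 peaks). The density was 0.523 between 50 and 100 kb (0.432 to 0.628, 116 peaks), 0.195 between 100 and 200 kb (0.143 to 0.260, 47 peaks) and 0.129 between 200 and 500 kb (0.0919 to 0.175, 40 peaks). Beyond 500 kb it was 0.0396 (0.0181 to 0.0751, 9 peaks). The intervals of the 3 classes under 100 kb overlapped one another and lay above those of the 3 classes beyond. The GC content of the eligible windows fell over the same classes, from a mean of 42.9% at 10 to 20 kb to 37.6% beyond 500 kb, and its part in the density was not tested. The eligible genome left out unsequenced bases but kept repeats, where reads may not align uniquely and a peak may not be callable. The part of this in the densities by distance and by chromosome was not tested.

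**Figure D1:**
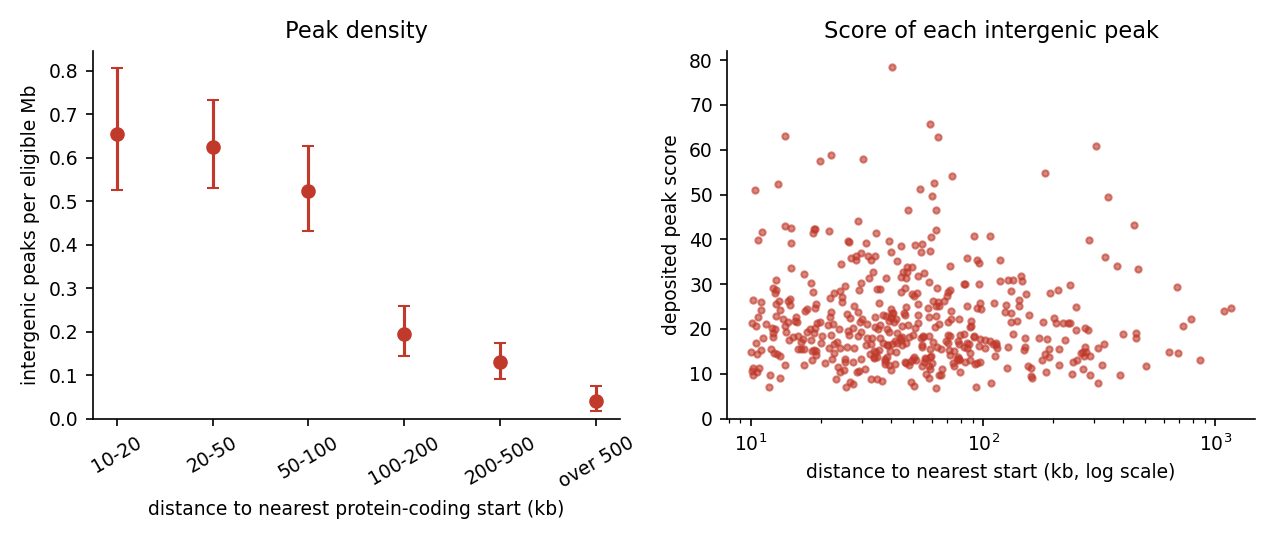
Intergenic peaks by distance to the nearest protein-coding transcription start. Left: peaks per megabase of eligible genome in 6 distance classes, with 95% Poisson intervals; the density is 0.655 at 10 to 20 kb and 0.0396 beyond 500 kb. Right: the deposited score of each of the 453 peaks against its distance on a log axis. The median score is 20.9 in the nearest class, 17.97 at 100 to 200 kb and 20.7 in the farthest, which has 9 peaks.

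Scores followed the course of the density only in part, and the quartile ranges of all classes overlapped. The median score was 20.9 (quartiles 15.5 and 26.3) at 10 to 20 kb and 19.93 at 20 to 50 kb. It fell further to 18.55 at 50 to 100 kb and 17.97 (15.5 and 26.2) at 100 to 200 kb. Farther out it was 18.39 at 200 to 500 kb and 20.7 (14.6 and 24.1) in the 9 peaks beyond 500 kb. The farthest peak lay 1166349 bp upstream of *Lrrn3*, a neuronal leucine-rich repeat protein gene, with a score of 24.6. The next lay 1085855 bp upstream of *Cited2*, a transcriptional co-regulator gene, with a score of 24.1. The remaining peaks among the 5 farthest were upstream of *Atxn7l3b* (855498 bp, score 13.2) and, as a pair, of *4930452B06Rik* (784096 and 727280 bp, scores 22.2 and 20.7). The peak lay upstream of its nearest start in 276 of the 453 cases (60.9%), as did 56.7% of the eligible windows. The 453 peaks had 390 different nearest genes, and the median gene-free interval holding a peak was 139.5 kb long, against 556.6 kb for the windows.

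Intergenic peaks were found on all 19 autosomes and X, at 0.328 per eligible megabase over 1382 Mb. Chromosome 8 held the most, 54, and also had the highest density at 0.794 per Mb (95% Poisson interval 0.596 to 1.04), 2.42 times that of the whole eligible genome. Chromosome 15 followed with 0.590 (0.406 to 0.828, 33 peaks). Chromosome X had the lowest density, 0.0648 (0.0261 to 0.134, 7 peaks), and chromosome 3 had 0.152 (0.0849 to 0.250, 15 peaks). The excess on chromosome 8 was shared with the other classes: intergenic peaks made up 54 of its 155 peaks (34.8%), close to the 31.7% of the whole list. No chromosome of the 20 passed an adjusted p of 0.05 for the share of intergenic peaks against all other peaks (exact Fisher test, Benjamini-Hochberg over 20 chromosomes; 3 were below an unadjusted 0.05, and the lowest adjusted p was 0.0853, for chromosome 7).

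**Figure D2:**
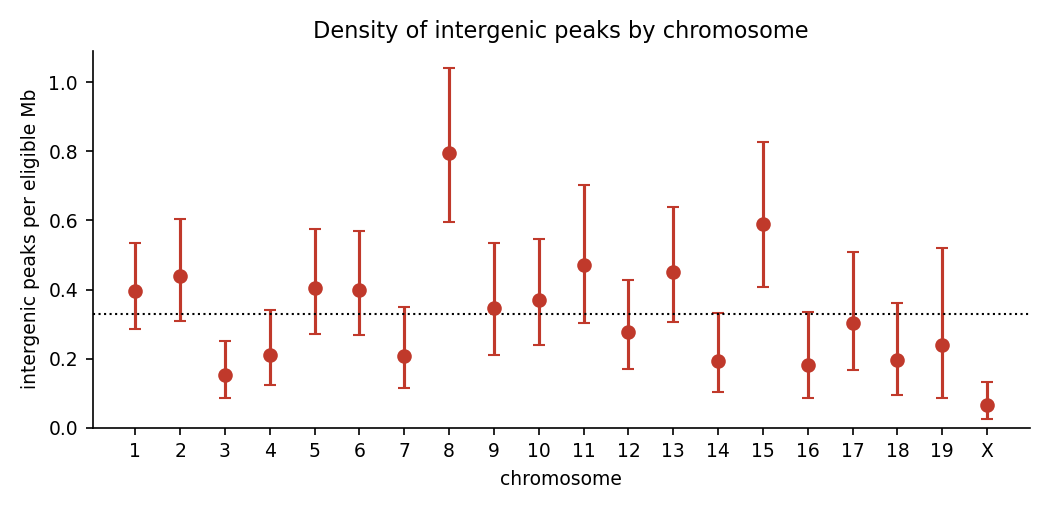
Intergenic peaks per megabase of eligible genome on each chromosome, with 95% Poisson intervals; the dotted line is the density over all chromosomes, 0.328. Chromosome 8 stands highest at 0.794 and X lowest at 0.0648.

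Another listed peak of any class lay within 100 kb of 166 of the 453 intergenic peaks (36.6%), beside 34.3% of all listed peaks. For the intragenic distal peaks the count was 96 of 323 (29.7%), an odds ratio of 1.37 (95% interval 0.997 to 1.88, exact Fisher test, two-sided p = 0.0457). Peaks near one another count as each other's neighbour, so they are not independent in this test, and its p was not adjusted. The difference was not significant among peaks of score 10 or more (exact Fisher test, p = 0.129). With a limit of 10 kb in place of 100 kb the counts were 21 and 25, the lower share being the intergenic one (exact Fisher test, p = 0.0891). Linking intergenic peaks less than 100 kb apart gave 46 chains with 113 members, of which 36 were pairs, 3 were triples, 5 had 4 members and 2 had 6.

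The first chain of 6 filled the interval of 340.7 kb between *Irf2bp2* and *Tomm20*, the gene of a mitochondrial import receptor (chr8:129137963-129374087). Its members had scores of 41.8, 54.0, 24.7, 25.1, 18.01 and 16.2 in order of position. The scores were highest at the *Irf2bp2* end, where the first peak lay 21.6 kb upstream of the gene. The second chain of 6 lay between *Mtap1b*, whose product binds microtubules in growing axons, and *Cartpt*, a neuropeptide gene (chr13:100324969-100608297). Here the scores were 20.03, 17.4, 28.5, 21.6, 31.8 and 46.6, and the highest lay at the *Cartpt* end, 62.7 kb from that gene. In each chain 1 of the 6 peaks held a CTCF consensus match, while AP-1 words were found in 3 peaks of the first and 1 of the second.

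Intergenic peaks were richer in G and C than the DNA beside them. Their mean GC content was 49.8% ± 4.33 (SD, n = 453 peaks), against 45.1% ± 4.65 for flanks of the same width 5000 bp away on either side. The peak exceeded the mean of its flanks in 387 of 453 cases (85.4%), fell below it in 64 and equalled it in 2, with a median difference of 4.43 percentage points (exact sign test, two-sided p = 2.2e-57). Over all listed peaks the share was 83.9%. The eligible windows had a mean GC content of 40.7% ± 6.19 (SD). The rise was local, from 45.2% in the 100 bases centred 4950 bp to the left of the midpoint to 51.0% in those next to it on the right.

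**Figure D3:**
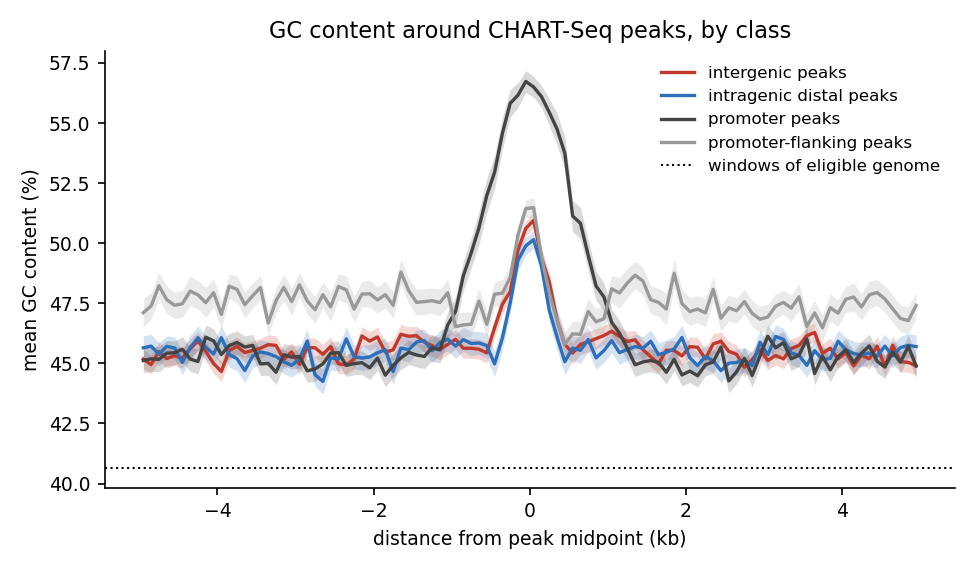
Mean GC content in bins of 100 bp around the midpoint of the peaks of each class; shading is the standard error over peaks and the dotted line is the mean of eligible windows, 40.7%. The intergenic and intragenic distal peaks rise to 51.0% and 50.2% just right of the midpoint, below the 56.5% of promoter peaks.

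The composition matched that of distal peaks inside genes more than that of promoters. The intragenic distal peaks averaged 49.5% ± 4.37 (SD, n = 323), and GC content above the median of the list was found in 170 intergenic (37.5%) and 108 intragenic distal peaks (33.4%), an odds ratio of 1.20 (95% interval 0.877 to 1.63, exact Fisher test, two-sided p = 0.255). Among peaks at least 50 kb from a start the counts were 69 of 212 and 23 of 115 (exact Fisher test, p = 0.0201). CpG-dense sequence, taken as a GC content of at least 50% and an observed over expected CpG ratio of at least 0.6, was found in 11 of 453 intergenic peaks (2.43%, 95% Wilson interval 1.36 to 4.30). Among promoter peaks it was found in 199 of 360 (55.3%, odds ratio 0.0202, exact Fisher test, two-sided p = 3.1e-73), and over all listed peaks in 15.5%. Among intragenic distal peaks it was found in 1 of 323 (odds ratio 8.00, 95% interval 1.15 to 346, exact Fisher test, p = 0.0181). That last difference rests on 12 peaks and was not significant among the peaks scoring above the median of the list (p = 0.155), among those at least 50 kb from a start (p = 0.101), or when genes of every biotype were counted (p = 0.145, all exact Fisher tests). CpG-dense sequence was found in 1 of 905 flanks of the intergenic peaks (0.110%) and in 0.282% of the eligible windows.

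The 5 highest-scoring CpG-dense intergenic peaks had GC contents of 51.3% to 63.1%. The first, of score 52.6, lay 35 bp from the annotated start of the pseudogene transcript *2610005L07Rik* (chr8:20020074-20020582) and had a GC content of 63.1%. The second lay 118540 bp from *Cldn23*, a tight junction gene, with a score of 35.4 (chr8:36770921-36771224). The others were 42.5 kb upstream of *Gm11146* (score 35.2), 55.7 kb upstream of *Ezh2*, the histone H3 lysine methyltransferase of Polycomb (score 32.4), and 11005 bp upstream of *Nfix*, a nuclear factor I gene (score 25.9).

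In the central 500 bp, 84 of 453 intergenic peaks (18.5%, 95% Wilson interval 15.2 to 22.4) held the CTCF consensus on either strand with at most 1 mismatch. Their flanks held it in 37 of 905 segments (4.09%, 2.98 to 5.58), and 2.13% of the eligible windows held it. Over all listed peaks the share was 16.7%, so that the share in intergenic peaks was near that of the list. Exact matches were found in 30 intergenic peaks (6.62%). The same consensus written backwards, which has the same letters in the opposite order, was found in 2 intergenic peaks (0.442%), 0.552% of flanks and 0.193% of windows. Backwards, the letters GGC read CGG and hold a CpG, which is scarce in these peaks (median observed over expected ratio 0.239). The backward count is therefore no matched control. The share with the consensus as written was similar over the range of GC content. It was 14.7% in the 68 peaks whose central segment was below 45% GC and 18.3% in the 60 at 55% or more. Windows of the same composition held it in 1.80% and 4.15%.

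CTCF matches lay near the peak midpoints. There were 0.629 matches per kb of sequence within 100 bp of the midpoint and 0.0942 per kb between 250 and 1000 bp away. The second range lies mostly outside the peaks, whose median width was 656 bp. In the 84 peaks with a match, the best one lay a median of 77.0 bp from the midpoint (quartiles 40 and 126). Peaks with a match were narrower, with a median width of 544.5 bp against 680 bp for the others (30 of 84 and 196 of 369 above the median of the intergenic peaks, odds ratio 0.491, 95% interval 0.289 to 0.821, exact Fisher test, adjusted p = 0.0418 over 8 comparisons of 4 words with score and width). Their scores had a median of 21.1 (quartiles 15.2 and 30.7) against 19.3 (14.6 and 26.2), a difference that did not pass (exact Fisher test, adjusted p = 0.863). None of the other 7 comparisons passed.

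**Figure D4:**
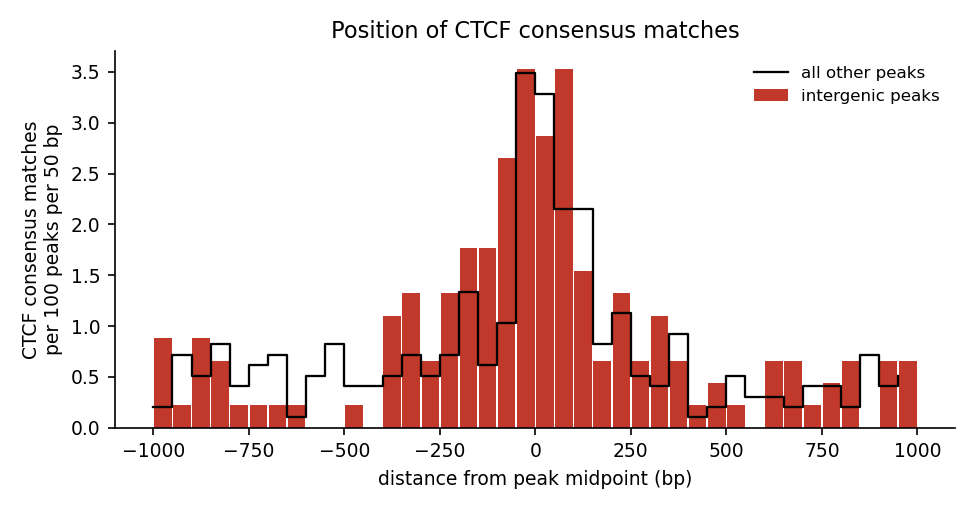
CTCF consensus matches with at most 1 mismatch per 100 peaks in bins of 50 bp around the peak midpoint, for the 453 intergenic peaks (bars) and all other peaks (line). In both the matches gather within about 100 bp of the midpoint, with up to 3.53 per 100 intergenic peaks in a bin.

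Of the 16 words, 7 had a 95% interval in intergenic peaks above that in their flanks and 1, the CA repeat, had one below it, with no test run on these shares. Beside CTCF the 7 comprised the AP-1 word and 2 E-box words, which are known from enhancers, and the SP1, ETS and MAZ words, which are known from promoters. The AP-1 word TGAGTCA was found in 88 intergenic peaks (19.4%, 95% Wilson interval 16.0 to 23.3), against 7.96% of flanks (6.37 to 9.90) and 7.39% of windows. The E12 E-box word CAGCTG, which class II basic helix-loop-helix dimers bind, was found in 167 (36.9%, 32.6 to 41.4), against 20.1% of flanks (17.6 to 22.8) and 15.2% of windows. The TAL E-box word CAGATGG was found in 101 (22.3%, 18.7 to 26.4), against 14.4% of flanks (12.2 to 16.8). This word can lie inside a CTCF match, as in the *4921513I03Rik* match shown above. Part of its excess, here and against promoter peaks, may therefore be CTCF matches, and that part was not counted. ETS (CCGGAAG) was found in 24 (5.30%, 3.59 to 7.76), against 1.55% of flanks (0.924 to 2.58), and SP1 (GGGCGGG) in 41 (9.05%, 6.74 to 12), against 3.43% (2.42 to 4.82). MAZ (GGGAGGG) was found in 115 (25.4%, 21.6 to 29.6), against 18.7% (16.3 to 21.3). As a ratio over the flanks, ETS (3.42) and SP1 (2.64) stood above AP-1 (2.44), the E12 E-box (1.83), the TAL E-box (1.55) and MAZ (1.36), and below CTCF (4.54). Within each of the 4 classes of GC content the AP-1 and E12 E-box shares of the peaks were above those of windows, as 25.0% against 7.03% and 25.0% against 11.7% in the class below 45%, and in the highest GC class the AP-1 interval (5.77 to 22.2) held the window share of 6.32%. For SP1 the interval lay above the window share only at 50 to 55% GC (12%, 7.98 to 17.6, against 6.31%). Below 45% no peak held SP1, against 0.764% of windows. At 45 to 50% the SP1 share was 4.67% (2.28 to 9.32) against 2.98%, and at 55% or more 21.7% (13.1 to 33.6) against 17.6%. ETS and MAZ were not counted by GC class, and the part of GC content in the ratios was not tested. At least 1 of CTCF, AP-1 and the E12 and TAL E-boxes was found in 313 of the 453 peaks (69.1%), beside 61.6% of all listed peaks and 29.5% of windows, and CTCF and AP-1 together in 9.

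The CA repeat CACACACA was the less frequent in peaks, at 9.71% (7.32 to 12.8) against 17.9% of flanks (15.5 to 20.5). For the other 8 words the intervals of peaks and flanks overlapped. The POU octamer ATGCAAAT, the word of the family to which the product of *Pou3f3* belongs, was found in 20 peaks (4.42%, 2.88 to 6.72), against 3.54% of flanks (2.52 to 4.95) and 5.0% of windows. The homeodomain word TAATTA was found in 14.8% and 13.4%, and the forkhead word TGTTTAC in 7.06% and 7.18%. The remaining words were KLF (CCACACCC, 7.06% against 4.53%), the USF E-box (CACGTG, 9.27% against 6.96%), NRF1 (GCGCATGCG, 4 peaks and no flank), STAT (TTCCNGGAA, 2.65% against 1.44%) and the GA repeat (GAGAGAGA, 9.27% against 12%). All were counted on both strands without mismatch, and words of 1 peak can overlap.

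No word of the 16 differed in its share between intergenic and intragenic distal peaks (exact Fisher tests, 0 below an unadjusted p of 0.05, lowest adjusted p = 0.581 over 16 words). The CTCF consensus was found in 18.5% and 17.6%, with an odds ratio of 1.06 (95% interval 0.722 to 1.57, exact Fisher test, p = 0.778). For AP-1 the shares were 19.4% and 23.2%, with an odds ratio of 0.797 (0.555 to 1.15), and for the E12 E-box 36.9% and 37.5%, with an odds ratio of 0.975 (0.718 to 1.32). Differences up to these bounds cannot be told from the data.

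Against promoter peaks, 10 of the 16 words differed after adjustment (62.5%), of which 6 were the more frequent in intergenic peaks and 4 the less frequent. The CTCF consensus was found in 27 of 360 promoter peaks (7.50%, odds ratio 2.80, 95% interval 1.75 to 4.62, exact Fisher test, p = 4.7e-06 and adjusted p = 1.5e-05). AP-1 was found in 6.11% (odds ratio 3.70, 2.24 to 6.35), the E12 E-box in 20.8% (2.22, 1.6 to 3.10) and the TAL E-box in 10.6% (2.43, 1.6 to 3.74). TAATTA (odds ratio 2.32, adjusted p = 0.00114) and the POU octamer (2.72, adjusted p = 0.0448, exact Fisher tests) were also more frequent in intergenic than in promoter peaks. The eligible windows held TAATTA in 18% and the octamer in 5%, within the intervals of the intergenic peaks (11.8 to 18.4 and 2.88 to 6.72). SP1 was found in 35.6% of promoter peaks (odds ratio 0.181, 0.119 to 0.269) and ETS in 22.5% (0.193, 0.114 to 0.316). MAZ and the USF E-box completed the words more frequent at promoters (odds ratios 0.648 and 0.606). Promoter peaks had a mean GC content of 56.0%, against 49.8% in intergenic peaks, and its part in these differences was not tested.

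**Figure D5:**
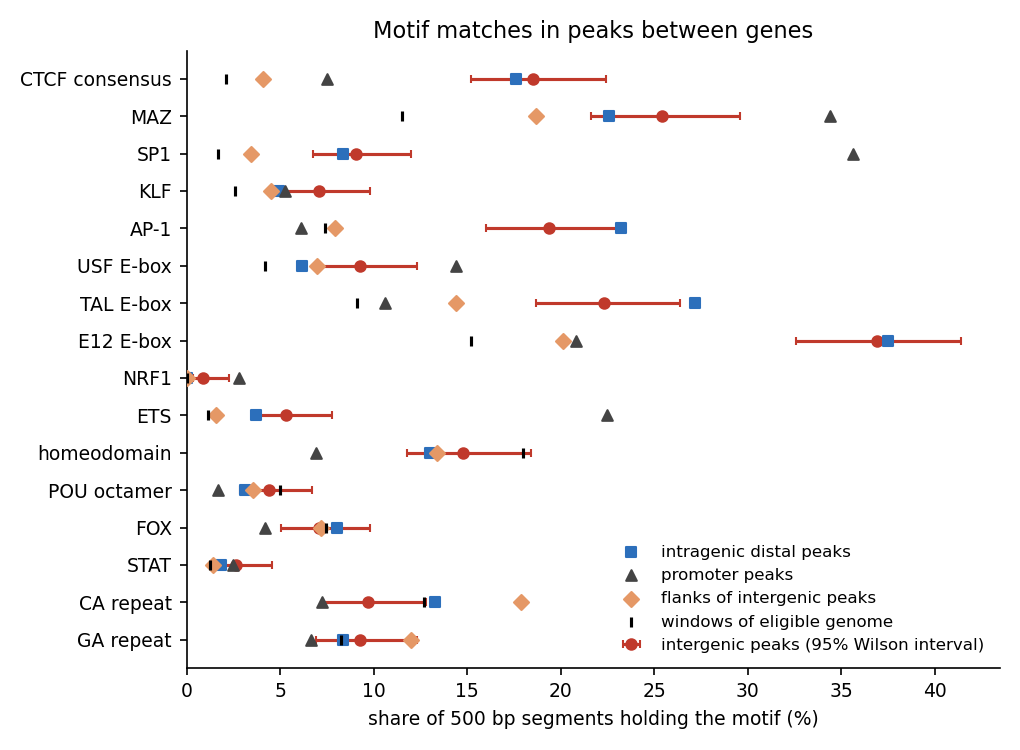
Share of 500 bp segments that held each of 16 words, for the centres of 453 intergenic peaks with 95% Wilson intervals, 323 intragenic distal and 360 promoter peaks, the flanks of the intergenic peaks and the windows of eligible genome. CTCF, AP-1, SP1, ETS, MAZ and the E-box words E12 and TAL stand right of the flanks in intergenic peaks, and SP1, ETS and MAZ stand highest at promoters.

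A pull-down can bring down DNA that pairs with the capture oligonucleotides themselves, so the longest exact match of any of the 10 oligonucleotides, each of them on either strand, was found in every peak. Since the oligonucleotides behind each pull-down are not known here, all of them were searched for every peak. In intergenic peaks it was 9.82 ± 1.19 bases long (mean ± SD, n = 453), against 9.20 ± 0.852 in the flanks 5000 bp away. It was the longer in the peak in 266 cases (58.7%), the shorter in 128 and equal in 59 (exact sign test, two-sided p = 3.1e-12). Over all listed peaks it was the longer in 59.4%. When the same oligonucleotides were read backwards without complement, which keeps their base composition, the lengths were 8.89 ± 1.14 and 8.81 ± 0.825, with 182 peaks above their flanks and 184 below (exact sign test, p = 0.958). The reversed oligonucleotides were added after the first result was seen. Reading backwards changes the order of neighbouring bases, and the match in the flanks also fell, from 9.20 to 8.81 bases. The reversed result therefore does not show why the matches were longer in peaks. Pairing of the oligonucleotides with DNA was not tested. Matches of 13 bases or more were found in 8 peaks, of which that near *Dnmt3l* (13 bases, score 63.1) had the highest score.

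The longest match had 16 bases and ran on the strand opposite to the oligonucleotide, in a peak of score 20.3 near *Pafah2*, a phospholipase gene (chr4:133986003-133986042). The genome sequence is shown on the plus strand and the oligonucleotide as designed, with the matching bases in capitals in both.

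Pafah2 peak: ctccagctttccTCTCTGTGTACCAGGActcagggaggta
capture oligonucleotide: aaTCCTGGTACACAGAGAcagaggc

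A further peak had a match of 14 bases, 6 had 13 and 27 had 12, while 50 had 8 and 1 had 7. No intergenic peak matched an oligonucleotide over its 25 bases. The oligonucleotides were designed against *Dali*, and the list held no peak at the *Dali* locus itself. The listed peak closest to that locus was the one near *Gm9915* (chr1:42299078-42299941), with the next listed peak 1876 kb from it. The paper reports enrichment of the locus by qPCR.

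Peaks far from protein-coding starts can lie at other promoters. An annotated transcript that is not protein-coding started within 1 kb of 16 of the 453 intergenic peaks (3.53%), beside 14 of 323 intragenic distal peaks (4.33%, odds ratio 0.808, 95% interval 0.364 to 1.82, exact Fisher test, two-sided p = 0.576) and 16.5% of all listed peaks, where most such starts belong to coding genes. The highest scores among the 16 were those at *2610005L07Rik* (score 52.6, 35 bp) and at the antisense transcript *Gm16287* (score 52.4, 845 bp). The lincRNA *Gm831* followed, 449 bp from a peak of score 36.0 that was 335 kb from a coding start. In all, 34 intergenic peaks (7.51%) overlapped a gene that is not protein-coding, among which 14 overlaps were with lincRNA genes and 18 with processed transcripts. The widest of them, 2782 bp, lay in the lincRNA gene *Pvt1* 236 kb downstream of the start of *Myc* (score 21.3, chr15:62053808-62056589). The share of all listed peaks that overlapped such a gene is not given here, so the 7.51% cannot be called particular to the intergenic peaks.

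The nearest genes of the intergenic peaks were set against 4 gene lists, whose shares among all listed peaks are given beside the counts. Among 91 neural lineage transcription factors, 4 peaks (0.883%) lay nearest to 3: the *Hand2* peak of score 60.8, a peak of score 43.2 lying 445 kb downstream of the start of *Gata3*, which like *Hand2* acts in sympathetic neurons, and 2 peaks upstream of *Myt1l*, a zinc finger factor of neurons (scores 29.7 and 7.99). These factors made up 0.403% of the annotated protein-coding genes and were nearest to 0.701% of all listed peaks. Axon guidance genes were nearest to 2 peaks, upstream of the repellent gene *Slit2* (score 13.9, 113 kb) and of the chemokine receptor gene *Cxcr4* (score 11.99, 211 kb), which is 0.442% beside 0.561% of all listed peaks. Voltage-gated channel genes were nearest to 2, at *Kcns2* (score 14.8, 42.0 kb) and *Kcnc4* (score 13.2, 22.3 kb), which encode potassium channel subunits (0.442% beside 0.420%). Mitosis and cell cycle genes were nearest to 4 (0.883%, beside 0.841% of all peaks): the kinetochore gene *Nuf2* (score 34.1, 72.1 kb), the mitotic kinesin gene *Kif11* (score 22.3, 13.7 kb), *Myc*, and the repressor gene *E2f6* (score 19.4, 29.8 kb).

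Genes on the study's lists of transcripts changed by *Dali* knockdown were the nearest gene of 35 of the 453 intergenic peaks (7.73%), with 32 genes among them, and of 9.74% of all listed peaks. For intragenic distal peaks the count was 43 of 323 (13.3%), an odds ratio of 0.546 (95% interval 0.330 to 0.897, exact Fisher test, two-sided p = 0.0150). With genes of every biotype in the rule the test was not passed (exact Fisher test, p = 0.113). The *Dali* lists joined genes from transient knockdown and from stable knockdown in proliferating and in retinoic acid differentiated cells. They come from the same cell line but not from the pull-downs, whose labels name no knockdown or differentiation. Peaks that share a nearest gene are not independent. The highest-scoring of the 35 peaks lay nearest to *Hand2* (score 60.8, 307 kb), the zinc transporter gene *Slc30a5* (42.9, 14 kb), *Gpcpd1* (42.1, 62.9 kb), *D130040H23Rik* (37.0, 29.8 kb) and the mitotic kinase gene *Nek2* (30.4, 18.1 kb). Genes of the *Pou3f3* knockdown list were nearest to 27 intergenic peaks (5.96%) and to 6.38% of all listed peaks. The highest scores among the 27 were those at *Gata3* (43.2), *Depdc1b* (41.5), the synaptotagmin gene *Syt6* (37.5), *Nuf2* (34.1) and the kinase gene *Sgk1* (33.8), and 6 peaks had a nearest gene on both the *Dali* and the *Pou3f3* lists.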

How the data were processed

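CHART-Seq was carried out in 3 pull-downs of N2A cells. The authors aligned paired reads of 50 bp to mm9 with Bowtie, keeping unique alignments, and called peaks with MACS2; the pull-downs were combined before deposit. The deposited list gives each peak a position and a score whose unit is not named, so scores were only ranked or compared with their median, and read depth is unknown. The 453 peaks were chosen by position alone, but this choice, the words and the gene lists were made with earlier results of these data known. Distances, gene spans and bases were taken from GENCODE M1 and NCBIM37, the assembly of mm9, in Python 3.11.15 with scipy 1.17.1. Classes were compared with exact Fisher tests, peaks with their flanks by exact sign tests, with a threshold of 0.05, and p-values were adjusted by Benjamini-Hochberg over 16 words, 20 chromosomes or 8 word comparisons. Peaks named are the 10 of highest score, the 5 farthest, the 3 widest, the longest chains, the 5 highest-scoring with an exact CTCF match or CpG-dense, those with the longest oligonucleotide matches and those at the 10 kb limit. Knockdown lists gave gene names only. The comparison of words with promoter peaks and of words with score and width was added after the first results. The word search, the oligonucleotide match and the adjusted Fisher test were tested on simulated data, and the peak classes against a direct recount. Intervals cover counting error over peaks only.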

Additional observations from a re-analysis of the deposited data

How the results depend on the processing

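Of 99 values recomputed under other settings, 81 were counted as the same. For a single test this meant the same direction and the same side of the threshold. For a number of words or chromosomes it meant an equal or similar number, so that single words could cross. Against promoter peaks, 7 words above the median score and 14 in the whole peak, in place of 10, were counted as the same. Differences below are the intergenic share minus the comparison share in percentage points. With a 50 kb limit in place of 10 kb, GC content above the median differed from intragenic distal peaks (12.6), the difference turned for the score (−4.14) and the CTCF consensus (−4.76), neither of them significant, the CpG-dense difference was no longer significant (3.30), nor was that of peaks with a neighbour within 100 kb (5.99), and 1 chromosome passed in place of 0. With genes of every biotype the CpG-dense difference (1.09) and that of knockdown genes (−3.95) were no longer significant and 1 chromosome passed. The CpG-dense difference was also lost above the median score (2.33). The CTCF difference turned within the central 100 bp (−0.584), where 3 of the 16 words differed from promoter peaks in place of 10. The neighbour difference was lost at scores of 10 or more (5.48) and within 1000 kb (4.23), and turned within 10 kb (−3.10). For the *Pou3f3* list the nearest-gene difference was −2.09 and not significant. Further settings were added after seeing the data. Counting only starts of genes that are not protein-coding turned the non-coding difference (1.37, not significant), oligonucleotides read backwards gave a mean difference from the flanks of 0.0828 bases with the balance of peaks turned, and leaving out chromosome 8, run only for GC content against the flanks and the CTCF consensus against intragenic distal peaks, changed neither call. The cause of these changes was not tested. The non-coding comparison was not run with genes of every biotype, where the rule itself removes such starts. Leaving out single pull-downs was not possible. No paired analysis was possible because the list holds 1 combined score a peak and no value for each pull-down.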

Other observations

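Of the 453 intergenic peaks, 46 (10.2%) shared a stretch of 30 identical bases with another listed peak, and the count was the same when stretches made of a repeated unit of up to 6 bases were left out. The share over all listed peaks is not given here, so the 10.2% cannot be called particular to the intergenic peaks. The widest intergenic peak, of 7063 bp near *Gm853* (score 32.2, 16.8 kb from its start), had a CpG ratio of 0.786 at a GC content of 45.5%, and none of the 16 words was found in its central 500 bp. After it and the peak in *Pvt1*, the third widest had 2423 bp and lay 22.2 kb upstream of *Oprd1*, the gene of the delta opioid receptor, with a score of 18.6 and a GC content of 49.9%.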
